A study of Mus musculus and Rattus norvegicus with 96 samples.

Results

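Rat liver and rat lung that had been frozen first and then fixed and embedded in paraffin were compared gene by gene. These were 12 of the 96 libraries of the series and 12 of its 36 rat libraries, chosen by their labels: 6 liver libraries (numbered 73 to 78) and 6 lung libraries (numbered 55 to 60). The liver came from male F344 rats and the lung from male WKY rats, all vehicle controls, and both tissues had been frozen, then held in 10% neutral buffered formalin for 18 to 24 h and embedded (FR>FFPE). Since each tissue came from its own strain, a difference between liver and lung cannot be told apart from a difference between F344 and WKY. The same strains and sex gave 2 further pairs of groups: frozen liver and frozen lung (FR, 6 libraries each), and liver fixed directly in 10% formalin for 18 to 24 h against lung fixed directly for 1 yr (6 libraries each). FR samples were assayed as purified RNA and FR>FFPE samples as lysates of embedded tissue, so the kind of input changed together with the preparation, and their effects cannot be told apart. Ages were not stated, no label ties a library to an animal, and p-values therefore measure the spread between these libraries, which may be technical.

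Liver and lung are a demanding pair for any expression assay because their main cells make very different products. Hepatocytes secrete most plasma proteins, among them albumin, apolipoproteins, clotting factors and complement, and carry the cytochrome P450 and conjugating enzymes that clear drugs and toxicants. Lung is built of thin alveolar epithelium over a dense capillary bed, held in a collagen and elastin scaffold and patrolled by alveolar macrophages that make lysozyme. The question put to the FR>FFPE libraries was whether this contrast between the tissues is kept, or made smaller, once frozen tissue has been fixed and read as a lysate. The assay was TempO-Seq, in which pairs of detector oligos anneal side by side on a transcript, are ligated, amplified and counted; the rat S1500+ panel reads a chosen set of genes rather than the whole transcriptome. A count depends on its detector oligos, so levels are compared below between groups for the same gene and not between genes.

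Of 28756 gene rows shared by the liver and lung tables, 2812 had at least 1 count in some rat library. Totals were 2156621 to 3898086 counts in FR>FFPE liver and 802684 to 1786806 in FR>FFPE lung, against 3040907 to 3970188 in FR liver and 2013606 to 2505947 in FR lung, and only 139477 to 889125 and 226751 to 1634577 in directly fixed liver and lung. FR lung library 54 held 12 counts and was left out, which leaves 5 FR lung libraries. No pair of libraries agreed within sampling noise. Levels are given as CPM, a gene's counts as a share of its library's total, scaled alike for all libraries, and 3 counts over a whole group, the limit that a count of 0 allows, correspond to 0.175 CPM in FR>FFPE liver, 0.4 CPM in FR>FFPE lung, 0.144 CPM in FR liver and 0.266 CPM in FR lung; these limits cover counting error only. Of 10 hepatocyte markers all had counts and 9 were called higher in FR>FFPE liver, the tenth, Cps1, being too low to test. Of 10 lung epithelial markers only Lamp3 had counts, and the surfactant genes, Scgb1a1 and Ager were listed at 0 in every rat library, so the lung label rests on Lamp3, endothelial and leukocyte genes. Of 6 endothelial markers 2 had counts, both called higher in lung. Of 6 leukocyte markers 2 had counts, and 1 was called higher in lung. Krt19 and Krt7, the 2 of 5 bile duct and other liver cell markers with counts, were also called higher in lung. Of all genes tested, 27.3% were called higher in lung. Lung libraries 57 and 59 stood apart: heart muscle transcripts reached 2334 CPM for Myh7 in library 59 and 1307 CPM in library 57, but 6.23 to 23.8 CPM in the other 4 lung libraries and 0 to 7.77 CPM in liver. The fits below were also computed without those 2 libraries.

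A few genes fill liver libraries. The 10 most abundant genes took 43.4% ± 5.13 of the counts in FR>FFPE liver and 27.0% ± 3.06 in FR>FFPE lung (mean ± SD, n = 6 each, all libraries thinned to 802684 counts), and the 100 most abundant took 78.3% ± 1.90 and 55.2% ± 2.31. At that depth 1527 ± 132 genes had at least 10 counts in liver and 2145 ± 27.3 in lung, and the groups did not overlap. These differences passed an exact two-sided permutation test over libraries (p = 0.00216 for each, the smallest that 6 against 6 can give; 0.00271 after Benjamini-Hochberg adjustment over 5 measures). Library-to-library spread of log2 CPM did not pass (0.27 in liver, 0.20 in lung, adjusted p = 0.175, exact permutation test). In FR the 10 most abundant genes took 48.5% ± 1.93 of liver counts (n = 6) and 30.6% ± 0.555 of lung counts (n = 5). This matters for every fold change. The TMM scaling of edgeR trims genes with extreme ratios between libraries or extreme abundance. It placed fitted log2 fold changes 2.05 higher toward liver (4.14-fold) than ratios of CPM. Fitted values are given as log2 of liver over lung on the TMM scale, levels as CPM on totals, and where these scales disagree on direction both are stated.

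FR>FFPE liver and lung differed at most of the genes tested. In bulk tissue, fewer cells of a type and less RNA per cell cannot be told apart. Of 2244 genes tested, 1194 (53.2%) passed an adjusted p under 0.05 and a change of at least 2-fold, 582 of them higher in liver (25.9% of genes tested) and 612 higher in lung (27.3%). Across every gene tested, the log2 fold change had a median of -0.29. For 1854 genes (82.6%) the CPM of the 6 liver and 6 lung libraries did not overlap. Among the 582 genes called higher in liver, 221 were lower in liver by CPM, and with totals as the only scaling 247 genes were called higher in liver and 1669 higher in lung (12.9% of calls in the liver direction, against 48.7% with TMM). All 612 lung calls and 247 of the 582 liver calls were also made, in the same direction, with totals.

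Plasma proteins carried the largest contrast toward liver. All 35 tested members of the hepatocyte secreted protein list were higher in FR>FFPE liver, beside 25.9% of all genes tested, with a median log2 fold change of 7.83. Alb encodes albumin, the main plasma protein (rn6, the rat build named in the processing notes, chromosome 14, 19176277 to 19191864, minus strand). It ran from 112797 to 188130.0 CPM in liver, with a median of 151396, and from 0 to 352 CPM in lung, with a median of 20.4. Even lung library 57, the highest, lay far below the lowest liver library, and the log2 fold change was 12.94 ± 1.51 (SE, edgeR quasi-likelihood test, adjusted p = 1.66e-06). Ttr, transthyretin, a carrier of thyroid hormone and retinol-binding protein, ran from 1064 to 2217 CPM in liver and from 0 to 5.93 CPM in lung, where 3 of 6 libraries had no count. Orm1, the acute-phase protein orosomucoid, was more uneven among livers (906 to 6187 CPM) and lay between 0 and 3.56 CPM in lung. Apoa1, the main protein of HDL, stood at 44072 ± 8913 CPM in liver and 77.5 ± 39.1 CPM in lung (mean ± SD, n = 6 each), and Serpina1, the elastase inhibitor alpha-1-antitrypsin, at 23645 ± 8290.5 and 46.5 ± 21.1 CPM. C3, the central complement component, is also made by lung cells and kept a smaller contrast, 38853 to 55788 CPM in liver against 621 to 1983 CPM in lung (log2 fold change 7.30 ± 0.41, adjusted p = 2.45e-10).

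Among genes of at least 50 CPM in liver whose groups did not overlap, Hao2, a peroxisomal 2-hydroxyacid oxidase, had the largest ratio. It ran from 829 to 1237 CPM in liver and had 2 counts in all 6 lung libraries together, both in library 57. C8a, a chain of the complement attack complex (908 ± 149 CPM in liver, 6 counts in all of lung), and Apcs, serum amyloid P (476 ± 60.9 CPM, 5 counts), followed the same pattern. Embedded lung therefore held at most a few counts of each.

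Drug-metabolising enzymes were higher in liver as a group but with a smaller contrast. Of 24 tested P450 and conjugating enzyme genes, 19 were higher in liver, 1 was higher in lung and 4 were not called, beside 25.9% and 27.3% of all genes tested, with a median log2 fold change of 4.53. With totals 16 were higher in liver and 5 higher in lung. Cyp1a2, which oxidises caffeine and aromatic amines, ran from 2414 to 7506 CPM in liver and from 36.5 to 95.9 CPM in lung. Cyp2e1, the ethanol-inducible P450, ran from 2577 to 4572 CPM against 50.4 to 177 CPM, and Gsta2, a glutathione S-transferase, from 2634 to 4735 against 45.3 to 117 CPM. Cyp3a2, the major male rat CYP3A enzyme, was measured at 6261 to 9148 CPM in liver but also at 808 to 1207 CPM in lung, so that the groups stood apart by a ratio of only 7.8 in pooled CPM (log2 fold change 5.03 ± 0.22 on the TMM scale, adjusted p = 1.72e-11). The single member higher in lung, named after its values were seen, was the flavin monooxygenase gene Fmo1 (183 ± 114 CPM in liver, 1825 ± 934 CPM in lung, log2 fold change -1.30 ± 0.43, adjusted p = 0.0134). Several CYP and UGT genes have near-identical relatives, and their counts are uncertain to the extent that detector oligos are shared.

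Genes of fuel and amino acid metabolism gave 29 of 31 tested members higher in liver, 1 higher in lung and 1 not called (median log2 fold change 6.07). Beside this list and those that follow here stand 25.9% of all genes tested higher in liver and 27.3% higher in lung. Fabp1, the liver fatty acid-binding protein, was at 3023 ± 734 CPM in liver and 58.1 ± 14.5 CPM in lung, and Pck1, a control point of gluconeogenesis, at 2818 ± 1691 and 32.8 ± 16.3 CPM, both without overlap between the tissues. The exception, Acot1, an acyl-CoA thioesterase named after its values were seen, was low in liver (4.9 ± 4.9 CPM) and higher in lung (78.8 ± 23.2 CPM, adjusted p = 7.65e-04). Transporters and regulators gave 21 of 24 members higher in liver, none higher in lung and 3 not called (median 4.35). They included Slc10a1, the bile acid uptake carrier (1075 ± 294 CPM in liver, 7.4 ± 2.88 CPM in lung), Asgr2, a subunit of the asialoglycoprotein receptor (1834 ± 105 and 141 ± 37.5 CPM), Slc27a2, a fatty acid transport protein (1127 ± 238 and 51.8 ± 13.3 CPM), and Ghr, the growth hormone receptor. Ghr was the weakest of these, 197 to 845 CPM in liver against 138 to 341 CPM in lung, with overlapping groups (log2 fold change 3.10 ± 0.36, adjusted p = 1.55e-06). Over the 4 hepatocyte lists, 104 of 114 tested members were higher in liver and 2 higher in lung; with totals as the scaling, 88 were higher in liver, and 5 enzyme, 2 metabolic and 3 transporter or regulator genes were higher in lung.

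Lyz2, the macrophage lysozyme gene, was among the genes with the largest ratio of lung to liver. It ran from 93247 to 159115 CPM in lung, with a median of 143941, and from 71.3 to 204 CPM in liver (log2 fold change -8.35 ± 0.35, adjusted p = 8.83e-12). Of 36 tested leukocyte genes 19 were higher in lung, 4 higher in liver and 13 not called, with a median log2 fold change of -1.25. Beside these stand 27.3% of all genes tested higher in lung, 25.9% higher in liver and a median of -0.29. With totals, 32 leukocyte genes were higher in lung and none in liver. Lcp1, an actin-bundling protein of leukocytes, was at 1112 ± 829 CPM in lung and 36.6 ± 8.73 CPM in liver, and S100a9, a neutrophil calprotectin subunit, at 906 ± 168 and 41.2 ± 14.1 CPM. Cd74, the invariant chain of MHC class II, ran from 7284 to 35966 CPM in lung and from 1162 to 2773 CPM in liver; it passed (log2 fold change -1.30 ± 0.38, adjusted p = 0.0072), but the change fell to -0.87 without lung library 59, under the 2-fold limit, and to -0.49 without libraries 57 and 59 (adjusted p = 0.124). Among members higher in liver, C1qc, a chain of complement C1q made by macrophages, was at 579.5 ± 123 CPM in liver and 298 ± 149 CPM in lung (log2 fold change 3.01 ± 0.34, adjusted p = 1.01e-06; named after its values were seen).

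Among the gene rows with the largest ratio of lung to liver were an immunoglobulin gene and 2 rows of the MHC. Igh-6, an immunoglobulin mu heavy chain gene of B cells, ran from 542 to 7410.4 CPM in lung, library 59 being the highest and the other 5 between 542 and 1211 CPM, and from 2.31 to 6.93 CPM in liver. RT1-CE5 and RT1-CE4, class I genes of the rat MHC, were at 2250.5 ± 903 and 6633 ± 2657 CPM in lung and at 1.58 ± 1.5 and 6.17 ± 3.94 CPM in liver. Their means in lung kept 1 proportion across preparations, with 2766 and 8133 CPM in FR and 3684 and 10836 CPM in directly fixed lung. These 2 rows are therefore not separate measurements. RT1-CE10, another class I gene, was not called on the TMM scale (log2 fold change -0.19 ± 0.19, adjusted p = 0.371). By CPM it was higher in lung without overlap (201 ± 13.4 in liver, 948 ± 212 in lung), and with totals it was called higher there (-2.24). MHC haplotypes differ between rat strains and class I genes are close copies of each other, so these values, like those of other RT1 genes, are uncertain as gene measurements. Hba-a3, an alpha globin gene, had no count in any F344 liver library and 339.7 to 667 CPM in WKY lung, at least 2547-fold higher in lung against a limit of 3 counts over the liver group. The related Hba-a2, by contrast, was counted in both tissues (269 ± 120.3 CPM in liver, 569 ± 147 CPM in lung); it was called higher in liver on the TMM scale (log2 fold change 1.04 ± 0.32, adjusted p = 0.00875) and lower in liver by CPM. That call was lost after thinning and in 4 of 12 fits that left out a library (liver 73 or 74 or lung 56 or 59; lowest 0.68, without liver library 73). Hbb, beta globin, was not called (3831 ± 1663 CPM in liver, 14957 ± 5884 CPM in lung). Of 3 tested red cell genes 1 was higher in liver and none in lung on the TMM scale, and with totals all 3 were higher in lung.

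Vessel and connective tissue genes were also mostly higher in lung. Of 16 endothelial genes 13 were higher in lung, beside 27.3% of all genes tested, none higher in liver and 3 not called (median log2 fold change -2.39). Kdr, the main VEGF receptor of endothelium, ran from 2792 to 4484 CPM in lung and from 184 to 295 CPM in liver, Vwf, von Willebrand factor, from 687 to 2818 against 6.51 to 19 CPM, and Cav1, the coat protein of caveolae, from 776 to 3014 against 7.88 to 42.2 CPM. Nrp1, a VEGF and semaphorin co-receptor, was at 1574 ± 488 CPM in lung and 58.6 ± 14.2 CPM in liver. Of 30 connective tissue and smooth muscle genes 18 were higher in lung, 3 higher in liver and 9 not called (median -1.62). Postn, periostin, a matrix protein, ran from 638 to 7576 CPM in lung and from 2.29 to 10.5 CPM in liver. Vim, vimentin, was at 4879.5 ± 872 and 173 ± 104 CPM and Sparc, a collagen-binding matrix protein, at 3538 ± 764 and 252 ± 82.2 CPM. Fn1, fibronectin, which hepatocytes secrete into plasma, was higher in liver (1123 ± 80.6 CPM against 318 ± 59 CPM, log2 fold change 3.89 ± 0.21, adjusted p = 1.47e-10; named after its values were seen). Col3a1, type III collagen, was not called: it was at 5215 ± 1545 CPM in lung and 2089 ± 980.0 CPM in liver, and its log2 fold change of 0.69 ± 0.25 on the TMM scale becomes -1.32 with totals.

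Epithelial genes were few on the panel. Of 11 tested lung epithelial genes 5 were higher in lung, 2 higher in liver and 4 not called, beside 27.3% and 25.9% of all genes tested (median log2 fold change -0.69, 9 higher in lung and none in liver with totals). Lamp3, a lamellar body protein of type II alveolar cells (chromosome 11, 84972132 to 85000682, plus strand), ran from 439 CPM in lung library 57 to 3185 CPM in library 58, and from 1.85 to 6.08 CPM in liver (log2 fold change -6.89 ± 0.49, adjusted p = 4.52e-09). Krt7 and Krt19, keratins of airway and bile duct epithelium, were at 605 ± 215 and 813 ± 198 CPM in lung. In liver both were uneven, from 1.39 to 38.8 CPM for Krt7 and from 1.45 to 30.4 CPM for Krt19. Krt8, a keratin of simple epithelia and of hepatocytes, overlapped between the tissues in CPM (441 ± 239.6 in liver, 388 ± 98 in lung) and was called higher in liver on the TMM scale (log2 fold change 2.22 ± 0.30, adjusted p = 9.28e-06; 0.18 with totals). Of 4 genes listed for other liver cells 1 was higher in liver and 3 in lung. Among 9 tested genes common to most cells 4 were higher in liver, 1 in lung and 4 were not called (median 0.83; none in liver and 5 in lung with totals). Calr, the endoplasmic reticulum chaperone calreticulin, was at 2493 ± 774 CPM in liver and 1482 ± 793 CPM in lung (log2 fold change 2.80 ± 0.40, adjusted p = 1.44e-05; 0.75 with totals, not called). Ywhaz, a 14-3-3 adaptor protein, was at 759 ± 126 and 5535 ± 1621 CPM (log2 fold change -0.81 ± 0.23, not called; -2.87 with totals, called). Both tested heart muscle genes, Myh7 and Actc1, were called higher in lung, but without libraries 57 and 59 neither was (log2 fold change -1.01, adjusted p = 0.231, and -1.31, adjusted p = 0.084).

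The contrast was then set beside that of frozen RNA from the same tissues and strains, in 1 fit of 4 group means over 2322 genes. FR liver and lung differed at 1429 genes (61.5%) and FR>FFPE at 1215 (52.3%). Of the FR calls, 1042 (72.9%) were made again in FR>FFPE in the same direction and 8 in the opposite direction; 379 were called in FR only and 165 in FR>FFPE only. The sign of the contrast was the same in both for 1901 genes (81.9%), and across genes, which are not independent replicates, the contrasts had a Pearson correlation of 0.89. Their size was not the same: the SD of the log2 fold change over genes was 2.57 in FR>FFPE and 4.04 in FR, a ratio of 0.636 that a constant shift between tissues does not change.

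A test of the difference between the contrasts called 721 genes (31.1%) at an adjusted p under 0.05 and a log2 difference of at least 1. Of these, 654 (28.2%) had a smaller contrast in FR>FFPE and 67 (2.89%) a larger one. The smaller contrasts were split between genes higher in FR liver (302) and genes higher in FR lung (352), and in 87 the fitted sign turned. The count of smaller contrasts ranged from 616 to 679 as each FR>FFPE library was left out and was 675 without lung libraries 57 and 59. It was 515 with totals, 540 with totals without genes over 1% and 489 after thinning. The larger contrasts were less steady, from 44 without liver library 74 to 84 without liver library 78, and 31 after thinning to 1 depth.

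**Figure D1:**
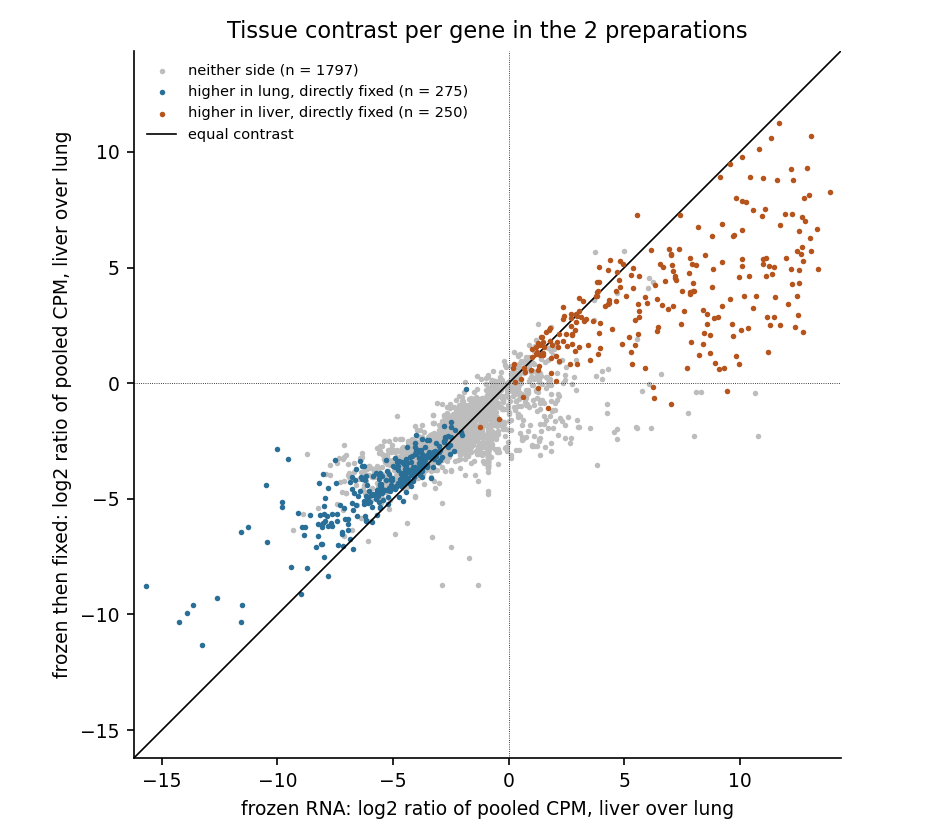
Liver over lung for each of 2322 genes in frozen RNA (x axis) and in frozen-then-fixed lysates (y axis), as log2 ratio of pooled CPM with groups under 3 counts set to 3; orange and blue mark the 250 and 275 genes that the directly fixed libraries placed on the liver and lung side, and the line marks equal contrast. Orange points lie mostly under the line and most far-left blue points above it, that is, nearer to 0 in the embedded lysates.

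To measure the size of the contrast on genes that neither preparation had chosen, genes were sorted with the directly fixed libraries alone, which like FR>FFPE were embedded lysates, by an adjusted p under 0.05 and a change of at least 4-fold. That put 252 genes on the liver side, 250 of which could be fitted, and 275 on the lung side. The median log2 fold change of liver-side genes was 5.44 in FR>FFPE and 8.83 in FR, and that of lung-side genes was -2.03 and -3.18. The distance between the 2 sides, which a constant shift between tissues does not move, was 7.47 in FR>FFPE and 12.01 in FR, a ratio of 0.622. How far the distances lay apart depended on the sorting limit. The difference was larger with sorting at 16-fold and much smaller with sorting by adjusted p alone, on other sets of genes. For 22 liver-side and 5 lung-side genes the low tissue had no count in FR, and with pooled ratios limited at 3 counts the distances were 7.52 and 11.9. Smaller contrasts were called for 150 liver-side and 125 lung-side genes, and larger ones for 2 and 1. Of all genes in that fit, 28.2% were called smaller and 2.89% larger. The sides were picked for large contrasts, so the shares are not a like comparison. In FR>FFPE 247 of the 250 liver-side and 231 of the 275 lung-side genes were still called on their own side. Of all genes tested there, 25.9% were called higher in liver and 27.3% higher in lung. Genes with a small contrast in directly fixed lysates could not enter the sides, so the counts are a description. The TMM shift toward liver, given above, also favours the liver-side count.

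Most of the shrinkage on the liver side lay in the tissue where the genes are low. Across FR>FFPE liver libraries the median level of liver-side genes ran from 521 to 713 CPM, overlapping the 489 to 571 CPM of FR liver. In lung the same genes had a median of 41.7 to 62.5 CPM in FR>FFPE libraries and 2.04 to 3.19 CPM in FR libraries, and these ranges did not overlap. Gene by gene, 217 of 250 were higher in FR>FFPE lung than in FR lung by mean CPM. The median over all genes was 104 CPM in FR>FFPE lung and 49.2 CPM in FR lung. The 142 fitted genes under 1 CPM in both frozen tissues had medians of 35.7 CPM in FR>FFPE lung and 4.24 CPM in FR>FFPE liver. Of them, 121 were over 10 CPM in FR>FFPE lung and 9 in FR>FFPE liver. They passed the expression filter only through FR>FFPE libraries, so a rise there was set by the filter and those values are a description. On the lung side the median level in lung ran from 415 to 543 CPM in FR>FFPE and from 476 to 497 CPM in FR, and in liver from 15.4 to 29.7 CPM against 11.2 to 14.1 CPM. With TMM scaling the liver-side medians in lung were 19.7 and 1.91 (TMM-scaled CPM), a rise as well, while those in liver were 983 in FR>FFPE and 1306 in FR, a fall where CPM by totals gave a rise. On the lung side, TMM-scaled levels in liver were 34.0 in FR>FFPE and 32.0 in FR, while those in lung were 179 and 333, so whether lung genes lost contrast in liver or in lung depends on the scaling.

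**Figure D2:**
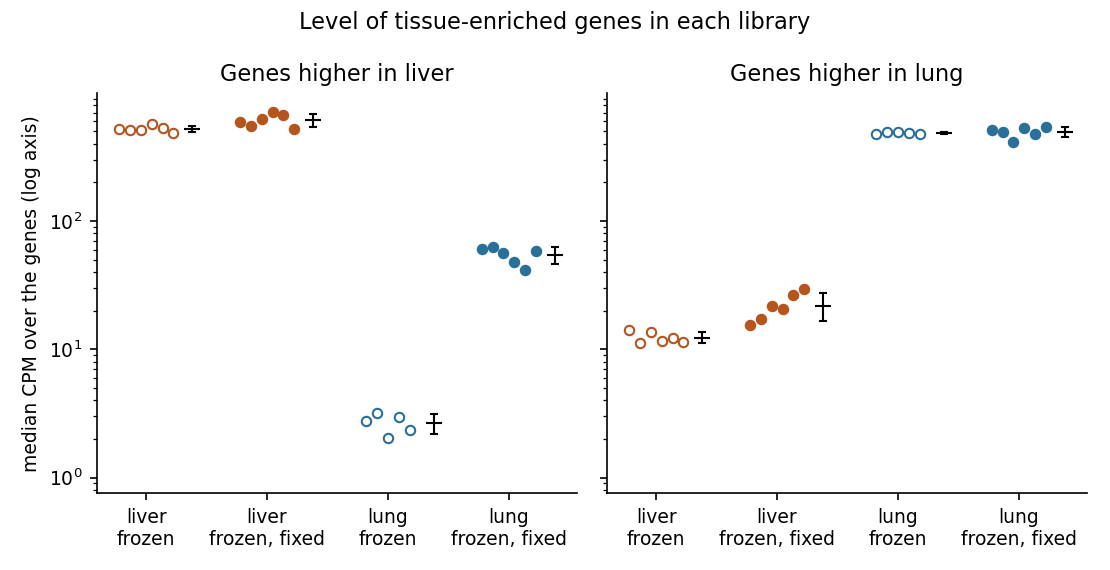
Median CPM (log axis) over the 250 genes on the liver side and the 275 on the lung side in each library; open circles are frozen RNA, filled circles frozen-then-fixed lysates, and bars give the mean ± SD of a group (6 libraries, 5 for frozen lung). Liver-side genes sit at 41.7 to 62.5 CPM in frozen-then-fixed lung and at 2.04 to 3.19 CPM in frozen lung.

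The loss of contrast followed how empty the low tissue was in frozen RNA. Of the liver-side genes, 93 had under 1 CPM in FR lung; their median there was 0.199 CPM and became 34.1 CPM in FR>FFPE lung, the median ratio of liver to lung fell from 924 to 15.4, and 90.3% were called smaller. For 63 genes between 1 and 10 CPM the lung medians were 2.78 and 38.4 CPM, and 74.6% were called smaller. For 59 genes between 10 and 100 CPM the medians were 32.9 and 80.8 CPM, with 32.2% called smaller. For 35 genes over 100 CPM the medians were 237 and 262 CPM and none was called smaller. The share called smaller also declined on the lung side, from 74.2% of 31 genes with under 1 CPM in FR liver to 23.7% of 38 genes over 100 CPM. Since the low FR level enters both the grouping and the contrast, these shares are given as a description, with no test.

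The level reached in embedded lung was not the same for every gene. Of the 93 liver-side genes with under 1 CPM in FR lung, 5 stayed under 1 CPM in FR>FFPE lung, 22 lay between 1 and 10, 56 between 10 and 100 and 10 above 100 CPM. Hao2, C8a and Apcs were among the 5. At the other end, named after their values were seen, Ugt2b37, a glucuronidating enzyme, had 0.16 CPM in FR lung, 299 to 495 CPM in FR>FFPE lung and 177 ± 95.3 CPM in directly fixed lung, and Cyp2c6v1, a CYP2C enzyme, had 0.278, 234 to 399 and 191 ± 95.4 CPM. Across the 250 genes the level in FR>FFPE lung ranked closely with that in directly fixed lung (Spearman rho = 0.872), less so with FR lung (0.596) and least with the genes' own level in FR>FFPE liver (0.442). The order differed on the lung side. There the level of 275 genes in FR>FFPE liver ranked closest with FR liver (0.908), then directly fixed liver (0.860) and FR>FFPE lung (0.690). With 93 of the 250 liver-side genes under 1 CPM in FR lung, ranks there rest partly on few counts. Those rank correlations are descriptions across genes, and those with directly fixed tissue use libraries that also sorted the genes. The part that detector oligos, lysate input or transcripts of other cells had in these levels was not tested.

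**Figure D3:**
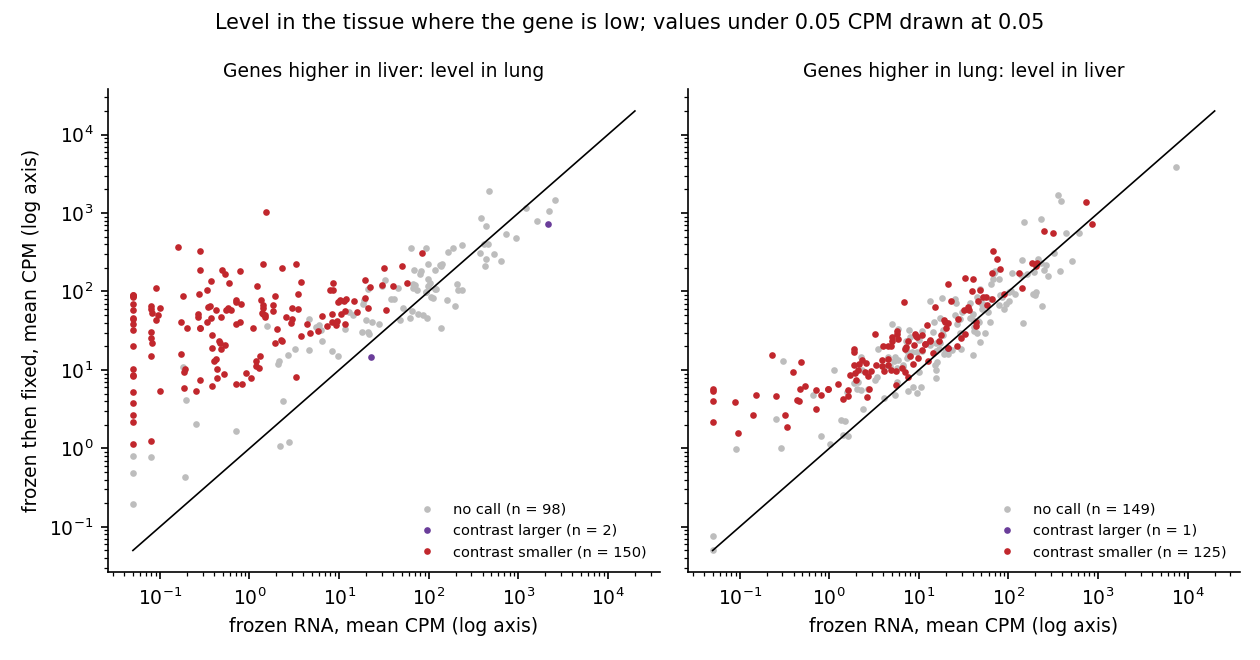
Mean CPM in the tissue where a gene is low, in frozen RNA (x axis) and frozen-then-fixed lysates (y axis), both on log axes, for liver-side genes in lung and lung-side genes in liver; red marks a contrast called smaller, purple larger, and the line marks equal levels. On the left, genes under 1 CPM in frozen lung spread from 0.198 to 371 CPM in embedded lung.

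Single hepatocyte genes differed in this respect. Cyp3a2 had 0 to 4.79 CPM in FR lung and 808 to 1207 CPM in FR>FFPE lung, while liver levels overlapped (7776 to 10829 and 6261 to 9148 CPM); the pooled ratio of liver to lung went from 5762 to 7.8, and the log2 difference of contrasts was -9.27 ± 0.55 (SE, edgeR quasi-likelihood test, adjusted p = 2.53e-13). Fabp1 went from 0.419 ± 0.693 to 58.1 ± 14.5 CPM in lung (difference -6.93 ± 0.53, adjusted p = 3.05e-11). Gsta2 (-5.42), Slc10a1 (-4.45), Pck1 (-3.04), Apoa1 (-2.77), Fga, a fibrinogen chain (-2.64), Cyp1a2 (-2.35) and Asgr2 (-1.98) were likewise called smaller, as log2 differences. Hpx, the haem scavenger hemopexin, was called at -1.25 but not without lung library 57 (-0.94, adjusted p = 0.0667) and not after thinning.

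For other abundant hepatocyte genes no difference between the contrasts was called. C3 was at 37679 ± 5389 and 1232 ± 156 CPM in FR liver and lung and at 44062 ± 6627 and 1153 ± 467 CPM in FR>FFPE (log2 difference 0.53 ± 0.36, adjusted p = 0.249). Cyp2e1 was at 1905 ± 456 and 45 ± 12 CPM in FR (difference -0.28 ± 0.36, adjusted p = 0.558). Alb was at 159835 ± 14944 and 19.2 ± 21.2 CPM in FR, and its difference of -2.03 ± 1.23 did not pass (adjusted p = 0.191). Serpina1, Ttr, Orm1 and Slc27a2 were not called either; FR lung held 95.6 ± 37.1, 0.711 ± 0.406, 2.78 ± 1.85 and 75.5 ± 9.04 CPM of them. A call that was missed does not show equal contrasts: the standard errors above allow changes of more than 2-fold for Alb.

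**Figure D4:**
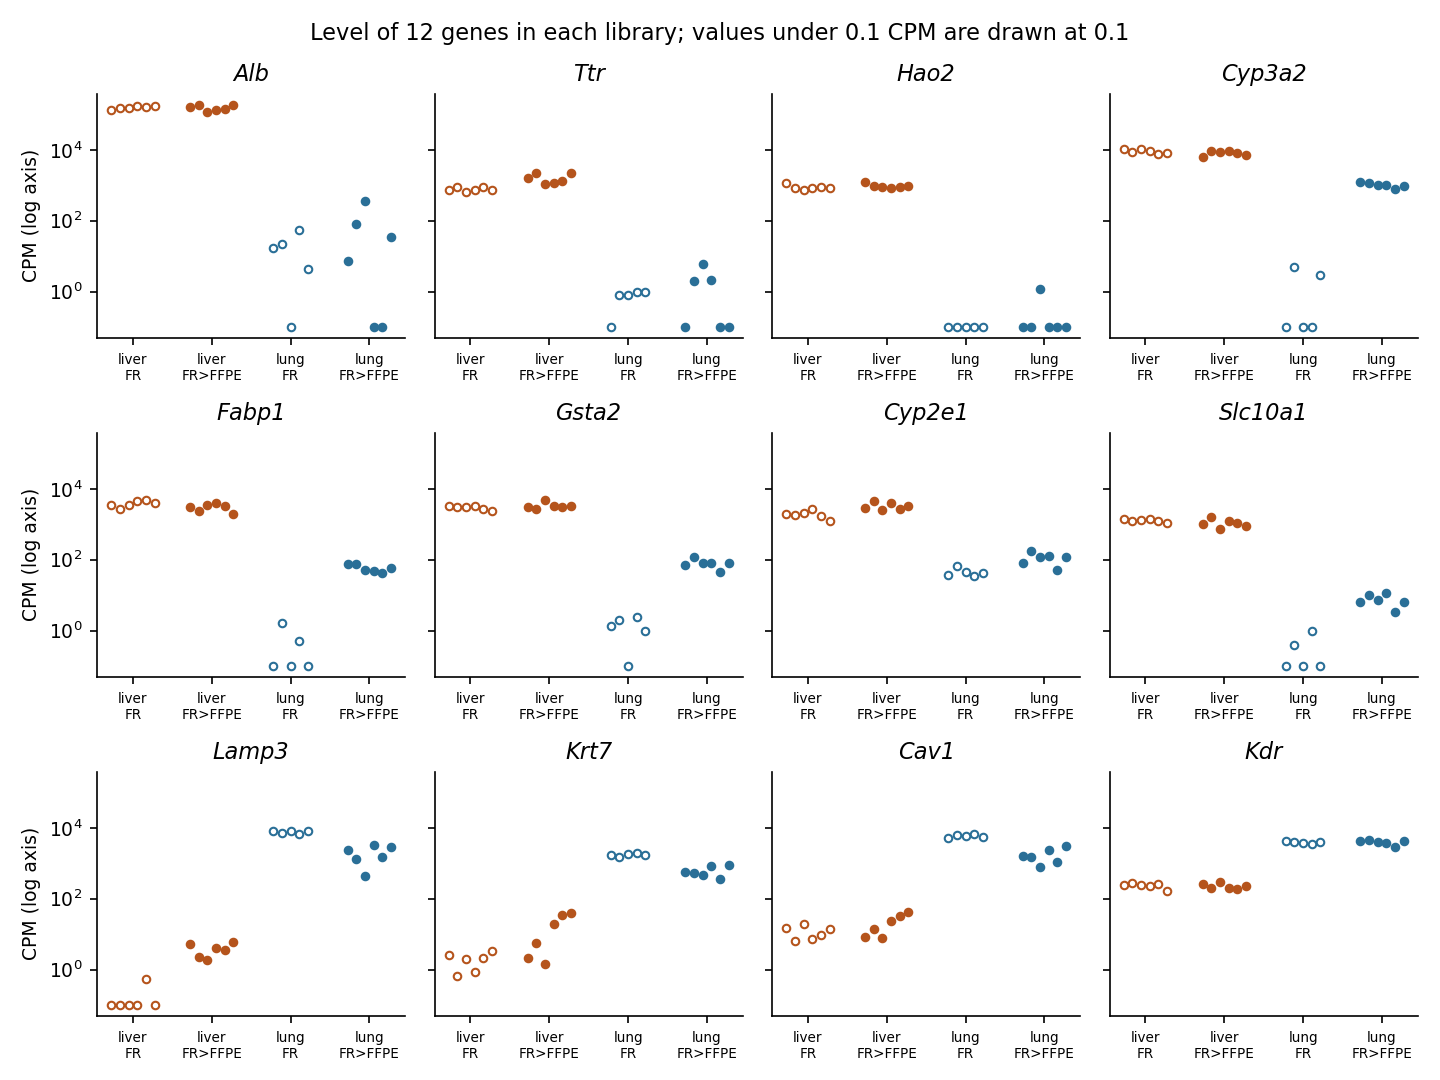
CPM of 12 genes in each library (log axis, values under 0.1 CPM drawn at 0.1) in liver (orange) and lung (blue), as frozen RNA (FR, open) and frozen-then-fixed lysate (FR>FFPE, filled). Cyp3a2, Fabp1 and Slc10a1 lie near 0 in frozen lung and well above it in every embedded lung library, while Hao2 and Ttr stay low in lung.

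By gene list, smaller contrasts were called for 76 of 116 hepatocyte genes in the 4-group fit and a larger one for 1, against 28.2% and 2.89% of all genes. They comprised 24 of 36 secreted protein genes, 17 of 24 P450 and conjugating enzymes, 18 of 32 metabolic genes and 17 of 24 transporters and regulators. Median log2 fold changes in FR>FFPE and FR were 7.86 and 11.6, 4.59 and 9.01, 6.06 and 7.74, and 4.41 and 8.21 for these lists in the same order. In lung the median level of the 24 P450 and conjugating genes was 117 CPM in FR>FFPE and 1.38 CPM in FR. The list sums tell the abundance of this signal: secreted protein genes together made up 43.4% to 51.1% of counts in FR>FFPE liver libraries, and 0.483% to 0.632% in FR>FFPE lung against 0.631% to 0.764% in FR lung. P450 and conjugating genes made up 2.93% to 3.58% in FR>FFPE liver and 0.514% to 0.816% in FR>FFPE lung against 0.345% to 0.551% in FR lung.

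On the lung lists 34 of 94 genes had a smaller contrast and 4 a larger one, beside 28.2% and 2.89% of all genes. Endothelial genes gave 7 of 16 smaller (median log2 fold change -2.33 in FR>FFPE, -4.02 in FR), connective tissue genes 14 of 31 (-1.74 and -2.45), leukocyte genes 8 of 36 (-1.18 and -2.22), a share under that of all genes, and lung epithelial genes 5 of 11 (-0.62 and -2.72). For several of them the level in lung itself was lower in FR>FFPE. Lamp3 was at 1945 ± 1037 CPM in FR>FFPE lung and 7649.5 ± 663 CPM in FR lung, while liver went from 2 counts in all to 3.85 ± 1.61 CPM (log2 difference 7.30 ± 0.82, adjusted p = 5.27e-08). Krt7 was at 605 ± 215 and 1727 ± 151 CPM in lung (difference 4.72 ± 0.69), Cav1 at 1727 ± 822 and 5904 ± 577 CPM (2.77 ± 0.46), and Lcn2, lipocalin 2, an iron-siderophore binder of neutrophils and airway, at 1470.2 ± 437 and 4359.9 ± 361 CPM (4.16 ± 0.73). Postn (3.35), RT1-CE5 (4.34), RT1-CE4 (4.00), Lyz2 (1.34), Lcp1 (1.33), Vim (1.24) and Nrp1 (1.01) were also called smaller; the Vim difference fell under the limit of 1 with RLE factors, with DESeq2 and without liver library 78 (0.97). That of Nrp1 did so with each other scaling, with DESeq2, with either other filter, after thinning and in 6 of 12 fits that left out a library (liver 75, 76 or 77 or lung 56, 57 or 59; lowest 0.86). Kdr was not called, with 3937 ± 609 CPM in FR>FFPE lung and 3949 ± 279 CPM in FR lung, with 228 ± 42.8 and 233 ± 37.9 CPM in liver, and neither were Vwf and Igh-6. In the remaining lists smaller contrasts were called for none of 9 common genes, 1 of 4 genes of other liver cells, none of 3 red cell genes and neither heart gene.

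**Figure D5:**
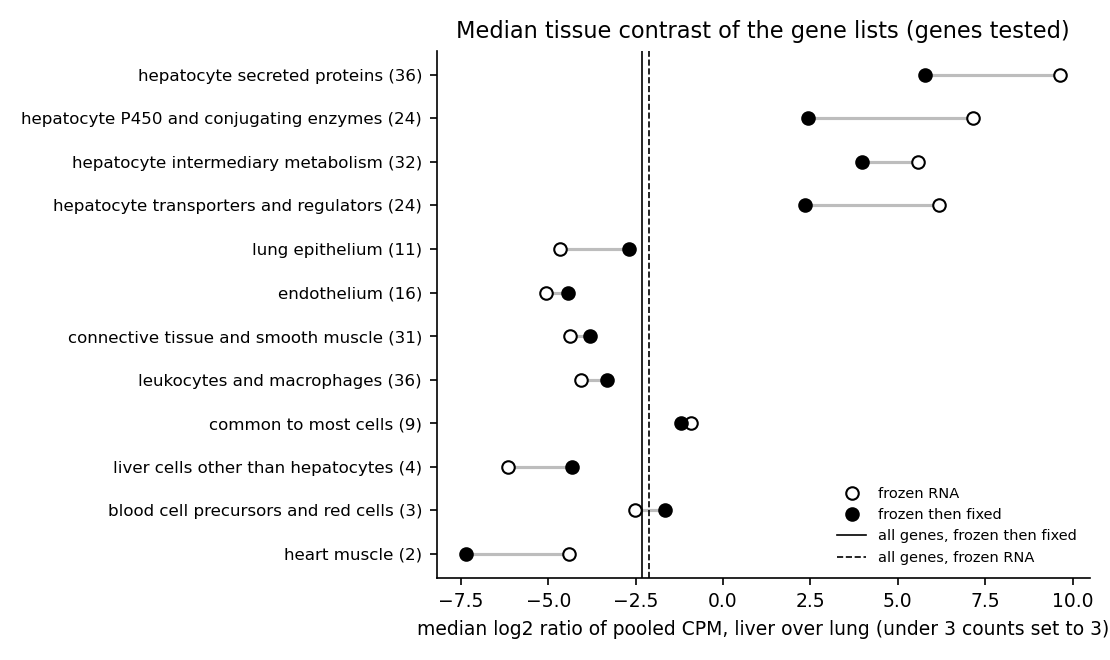
Median log2 ratio of pooled CPM, liver over lung, of each gene list in frozen RNA (open) and frozen-then-fixed lysates (filled), with the number of genes tested; lines give the median of all genes. Every hepatocyte list and the lung epithelial, endothelial, connective tissue and leukocyte lists lie nearer to the median of all genes in the embedded lysates, and the heart muscle list rests on lung libraries 57 and 59.

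Some of the largest differences of contrast were in genes with no count or 1 count in FR lung. LOC100364500, annotated at chromosome 20 (2704148 to 2707121) of rn6, had no count in 5 FR lung libraries and 4414 to 8035 CPM in FR>FFPE lung, against 378 to 552 CPM in FR liver and 1294 to 1562 CPM in FR>FFPE liver. In FR it was thus at least 1782-fold higher in liver, and in FR>FFPE it was 4.89-fold higher in lung by pooled CPM, while the fit on the TMM scale called no difference (log2 fold change -0.19 ± 0.20, adjusted p = 0.389). Directly fixed lung held 1639 ± 670.5 CPM. RT1-CE10, a class I gene, had no count in FR lung and 640.4 to 1166 CPM in FR>FFPE lung. Its mean CPM kept 1 proportion to that of LOC100364500. The means were 948 and 6535 in FR>FFPE lung, 201 and 1387 in FR>FFPE liver, and 69.3 and 478 in FR liver. These 2 rows are therefore not separate measurements. Amy1a, an amylase gene, and Urad, an enzyme of urate breakdown, also had no count in FR lung and 90.5 ± 20.4 and 85.4 ± 24.8 CPM in FR>FFPE lung, so that liver was at least 3399.6-fold and 1003-fold higher in FR, and 5.65-fold and 1.78-fold higher in FR>FFPE. LOC100912485 had 1 count in FR lung and 243 to 345 CPM in FR>FFPE lung. How reads of MHC class I copies were divided between gene rows was not tested.

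Among the 67 larger contrasts, 51 were higher in liver in FR>FFPE by the fit and 16 higher in lung; of the 51, 39 were lower in liver by CPM. In 44 of the 67 the fitted sign turned between FR and FR>FFPE, so that larger here often means a contrast of the other direction. The 5 largest among genes of at least 50 CPM in some FR or FR>FFPE group were LOC100910978 (log2 difference 2.40), Gdf15, a stress-induced cytokine (2.10), LOC108348085 (1.90), Hrc, a calcium-binding protein of muscle (-2.03), and Slc25a27, a mitochondrial carrier (-1.83). The first 3 were higher in FR>FFPE liver on the TMM scale and lower there by CPM. By CPM their contrasts were smaller, not larger, than in FR: lung over liver went from 8.61 to 1.90 for LOC100910978, from 7.28 to 1.93 for Gdf15 and from 3.68 to 1.14 for LOC108348085. The tissue call of Gdf15 was lost in 7 of 12 fits that left out a library (lowest log2 fold change 0.61, without liver library 74), and that of LOC100910978 without liver library 73 (0.998). The difference of Slc25a27 was not called after thinning (-1.11, adjusted p = 0.535). The difference of Hrc was not called after thinning (-1.61, adjusted p = 0.214), without liver library 76 (adjusted p = 0.0502), without lung library 57 (-1.61, adjusted p = 0.0682), without library 59 (-1.80, adjusted p = 0.0589) or without both (-0.97, adjusted p = 0.215). Calr (1.12), Krt8 (1.74), Hba-a2 (1.79) and C1qc (1.39) were the other named genes called larger. By CPM, lung over liver went from 6.04 to 2.12 for Hba-a2 and from 2.60 to 0.880 for Krt8. The Calr difference was lost with each other scaling, with DESeq2 and in 4 of 12 fits that left out a library (without liver library 76 or 77 or lung library 56 or 57; lowest 0.91).

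Against the directly fixed tissues, 636 of 2302 genes (27.6%) had a different contrast, 210 smaller and 426 larger in FR>FFPE. In that pair fixation time differs between the tissues, and total counts were lowest, so its part in the difference cannot be told apart from the preparation. After thinning to the smallest library 266 genes were called.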

How the data were processed

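TempO-Seq libraries of rat liver and lung were taken from 2 tables of expected counts (estimated counts per gene) that the authors deposited, joined by gene symbol. 4 gene rows were in the lung table only. Of the nonzero values 89.1% were whole within 1e-06, and all were rounded to whole counts. The tool and settings that made them are not given in the sources used here. The submitters' processing notes name CASAVA 1.8.2, Partek, STAR 2.5.3a and the builds GRCm38, mm10 and rn6 with no role, and coordinates are printed as deposited. The authors' log2 CPM tables and the mouse tables were not used here.

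CPM was computed from the deposited counts over library totals. Groups were fitted with edgeR 4.0.16 in R 4.3.3 (TMM factors, filterByExpr, quasi-likelihood test, Benjamini-Hochberg adjustment over all genes tested): liver against lung in FR>FFPE over its 12 libraries, and the difference of contrasts (tissue by preparation) over 4 groups, once with FR and once with directly fixed tissue. Calls needed an adjusted p under 0.05 and a 2-fold change. The script was tested on simulated data. The text names the 10 genes per direction with the largest pooled ratio, 4 members per list, and the 5 smaller and 5 larger contrasts with the largest difference, at 50 CPM or more where ratios or differences were ranked, and a few more that are marked. The 5 genes on either side of the fold limit are not listed, and some results that this rule covers are not reported here. Members, lists and tests were chosen with earlier results of these data known. Alternatives were other scalings (totals, RLE, totals without genes over 1%), DESeq2 1.42.0, filters, thinning, thresholds and leaving out libraries.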

Additional observations from a re-analysis of the deposited data

Results flagged for a closer look

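Single libraries stood apart from the other 5 of their group in 18 of 132 groups of values tested by Dixon's ratio. The nominal rate of about 5% holds for independent normal values. These groups share libraries, and for Hao2 in lung and Clec4a3 in liver the other 5 libraries had no count. The 18 therefore cannot be judged against that rate. Lung library 57 was the highest for Hao2 (1.19 CPM), Alb (352), Ttr (5.93), Hba-a3 (667), Ywhaz (8605) and Hbb (26049) and the lowest for Clec4a3, a C-type lectin receptor of myeloid cells (30.2 CPM). Lung library 59 was the highest for Igh-6 (7410 CPM), Lcp1 (2770) and C1qc (578). These are the 2 lung libraries with the most heart muscle transcripts. Among liver libraries, 73 was the highest for Hao2 (1237 CPM), Pck1 (6182) and Hbb (6904), 75 for Gsta2 (4735) and Clec4a3 (0.464, 1 count), and 78 for Lyz2 (204), Vim (371) and Actc1 (11.8).

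The contrast between tissues differed from that in frozen RNA at 721 genes and from that in directly fixed tissue at 636 genes, by the test of the difference itself. Among the named genes it differed at 37. As log2 differences (FR>FFPE minus FR, liver over lung), the hepatocyte genes called smaller were Cyp2c6v1 (-9.40), Ugt2b37 (-10.28), Cyp3a2 (-9.27), Fabp1 (-6.93), Gsta2 (-5.42), Slc10a1 (-4.45), Pck1 (-3.04), Apoa1 (-2.77), Fga (-2.64), Cyp1a2 (-2.35), Asgr2 (-1.98) and Hpx (-1.25). The lung genes called smaller were Lamp3 (7.30), Krt7 (4.72), RT1-CE5 (4.34), Lcn2 (4.16), RT1-CE4 (4.00), Postn (3.35), Cav1 (2.77), Lyz2 (1.34), Lcp1 (1.33), Vim (1.24) and Nrp1 (1.01). LOC100912485 differed by -11.43. With FR lung set to the limit of 3 counts, pooled ratios differed by -13.09 for LOC100364500, -10.30 for RT1-CE10, -9.23 for Amy1a and -9.14 for Urad. Larger contrasts were called for LOC100910978 (2.40), Gdf15 (2.10), LOC108348085 (1.90), Hba-a2 (1.79), Krt8 (1.74), C1qc (1.39) and Calr (1.12), and, toward lung, for Hrc (-2.03) and Slc25a27 (-1.83).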

How the results depend on the processing

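No paired analysis was possible because the liver and lung libraries come from different strains and share no replicate number. For the named genes, 1305 alternative values of the tissue contrast kept direction and call, 35 lost the call, 7 gained one and 16 changed direction; of the differences between preparations 862 kept the call and 40 lost it. Leaving out each FR>FFPE library gave 1160 to 1291 genes called between the tissues, 682 to 756 with a different contrast from FR, 616 to 679 smaller, 44 to 84 larger, 568 to 791 different from directly fixed tissue, and a difference in the distance between sides of -4.63 to -4.30. With totals as library size 1916 genes were called between the tissues, 105 contrasts were larger than in FR, 1104 differed from directly fixed tissue and 84 members of the lung lists were higher in lung. Larger contrasts numbered 39 with RLE factors, 31 after thinning, 179 by adjusted p alone and 90 without lung libraries 57 and 59; thinning left 266 differences from directly fixed tissue. DESeq2 called 1157 genes, 628 differences from FR (582 smaller, 46 larger) and 746 from directly fixed tissue. A limit of 4-fold gave 605 genes between the tissues, 381 differences from FR (375 smaller, 6 larger) and 177 from directly fixed tissue. Sorting the sides by 16-fold moved the difference in distance to -6.04, and sorting by adjusted p alone to -1.35, on other sets of genes.

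Direction changed with totals for Col3a1 (-1.32), Hbb (-1.97), Hba-a2 (-1.08), LOC100912485 (-0.31), LOC100910978 (-0.93), Gdf15 (-0.95) and LOC108348085 (-0.20), by the scaling itself. With totals that leave out genes over 1% it changed for Col3a1 (-0.62), Hbb (-1.27), Hba-a2 (-0.36), LOC100910978 (-0.23) and Gdf15 (-0.20). Hbb ranged from -0.21 (without liver library 73) to 0.40 (without lung library 57) as libraries were left out and was at -0.26 with all rat groups in 1 fit, and LOC100364500 and RT1-CE10 were at 0.047 and 0.048 without lung libraries 57 and 59; the cause was not tested. Sides were not refitted with DESeq2 or without a filter. Depth limits the lowest levels: under 3 counts per group no fold is given.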
